A study of Mus musculus with 31 samples.

Results

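Translation initiation factors are the proteins that bring the small ribosomal subunit, the initiator tRNA and the 5′ cap of an mRNA together. Their genes were taken as every symbol of the 3 count tables that begins with Eif and a digit from 1 to 6. The kinases of the Eif2ak group, the Eif4ebp binding proteins and names with -ps, a mark of pseudogenes, were left out. This gave 68 genes, of which 51 were listed in all 3 tables, out of 55487 to 56980 rows per table. The choice used names only and no measured value. One of them, Eif2c5, is annotated as a long intergenic RNA and matched by name alone. It was not tested in any table. Eif1ad9 is annotated as an unprocessed pseudogene and stayed in by its name.

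The cells were Panc02, a murine pancreatic adenocarcinoma line, in 31 libraries. The labels of the rescue table give each library another cell line name, Panc03 to Panc12, and the name in the study's methods was followed here. In the media table, WT spheroids in Matrigel received control medium (Ctrl), M0-CM or M1-CM, with 3 libraries each. These are filtered media of macrophages grown from bone marrow, left untreated (M0) or given IFNγ and LPS (M1), mixed with fresh medium. In the culture table, WT and Cxcl5-/- cells were grown in 2D or in 3D, with 3 libraries each. In the rescue table, all cells were grown in 3D and comprised WT (n = 2), Cxcl5-/- (n = 2), Cxcl5-/- cells carrying a stabilised Hif1a mutant (Hif1a-OE Cxcl5-/-, n = 3) and Cxcl5-/- cells carrying Myc (Myc-OE Cxcl5-/-, n = 3). Cxcl5 was disrupted with lentiCRISPR v2 and puromycin selection, and both transgenes were delivered in a pLPCX retrovirus. Whether the Cxcl5-/- cells were 1 clone is not stated in the sources used here. The study's methods speak of biological replicates and independent experiments in general, and do not say whether the libraries of a group came from separate cultures. The p-values therefore measure the spread between these libraries, which may be technical.

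As background, initiation starts with eIF2, a complex of 3 subunits that carries the initiator tRNA to the ribosome as GTP is bound, and eIF2B recharges it with GTP. The large eIF3 complex holds the ribosomal subunit, eIF1, eIF1A and eIF5 govern the choice of the start codon, and eIF4E, eIF4G and the helicase eIF4A form the complex at the cap. Myc is known to raise components of the translation machinery, and Eif4e and Eif5a are known as genes linked to growth of tumour cells.

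The binding letters of Myc, the E-box CACGTG, were searched in RefSeq promoter windows of GRCm38.p6 that run from 250 bases before to 50 bases after each gene start. CACGTG reads the same on both strands and contains ACGTG, the core of the element that Hif1a binds. Of the 68 genes, 40 had at least 1 window, 52 windows in all. CACGTG lay in 23.1% of these windows, in 7.15% of all 32851 windows and in 9.71% of the 12775 windows of genes with at least 10 counts in every library of the rescue table. ACGTG on either strand lay in 38.5%, 19.6% and 25.3%, and GCGTG, the other form of the Hif1a core, in 61.5%, 32.4% and 49.4%. The windows of 10 genes held CACGTG (Eif1b, Eif3a, Eif3f, Eif3k, Eif4a1, Eif4e, Eif4g1, Eif4h, Eif5a and Eif5a2). The following lines show 30 bases around the E-box, in capitals, in 5 of them whose transcripts are described below. A match is a string of letters and no measure of binding.
Eif4e at chr3:138527028-138527057, + strand: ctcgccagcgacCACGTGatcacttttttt
Eif4e at chr3:138527192-138527221, + strand: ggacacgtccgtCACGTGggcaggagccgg
Eif5a at chr11:69920791-69920820, - strand: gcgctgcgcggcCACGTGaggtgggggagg
Eif5a at chr11:69921443-69921472, - strand: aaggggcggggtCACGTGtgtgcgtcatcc
Eif3k at chr7:28981915-28981944, - strand: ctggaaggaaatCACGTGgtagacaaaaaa
Eif3f at chr7:108934335-108934364, + strand: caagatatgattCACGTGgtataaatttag
Eif4g1 at chr16:20672661-20672690, + strand: ggcagtgggtgtCACGTGatggggcggagc
The E-boxes of Eif4e began 228 and 64 bases before a RefSeq start, those of Eif5a 178 and 74, that of Eif3k 44, that of Eif3f 68 and that of Eif4g1 54 bases before it. The one 74 bases before a start of Eif5a also lay 185 bases before another of its starts. Eif4g1 had a further one 15 bases after its start.

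Total counts ranged from 41542533 to 78498230 per library. Levels are given as CPM, the count divided by the library's total and put on the usual CPM scale after scaling by TMM, a scaling in which most genes are taken as unchanged. Cxcl5 itself was at 45.6, 47.3 and 49.1 CPM in 2D WT and at 37.4, 32.7 and 32.8 CPM in 2D Cxcl5-/- cells. The 3D WT libraries held 28.5, 24.5 and 28 CPM, and those that carry the 3D Cxcl5-/- label held 65.5, 40.9 and 45.4 CPM. This is higher and goes against the label, so they are called the labelled 3D Cxcl5-/- libraries below, and each direction drawn from them rests on the label. Small changes made by Cas9 need not lower the number of transcripts, so the count of Cxcl5 is a weak check. Eif4e3, described below, had 2, 0 and 2 counts in these libraries and 0 in every 2D and rescue Cxcl5-/- library with no transgene. Each WT library of both tables had 9 or more. Eif4e3 was not planned as a check of the label and was set beside it after its values were seen, so nothing about the label is drawn from it. In the rescue table Cxcl5 was at 64.2 and 67.7 CPM in WT and at 36.6 and 40.2 CPM in Cxcl5-/- cells. Myc was at 396.9 to 548.5 CPM in Myc-OE Cxcl5-/- cells against 20 and 22.3 CPM in Cxcl5-/- cells. Hif1a was at 243.0 to 295.8 CPM in Hif1a-OE Cxcl5-/- cells, which overlapped the 241.1 to 271.1 CPM of Myc-OE Cxcl5-/- cells, and at 133.5 and 143.9 CPM in Cxcl5-/- cells. The summed level of the epithelial marker genes ran from 852.1 to 1096.0 CPM in 3D WT and from 214.2 to 232.8 CPM in the labelled 3D Cxcl5-/- libraries, while that of the macrophage markers stayed at or under 11.3 CPM in all 31 libraries. The sum of the 3 fibroblast markers moved the other way, from 126.6 to 137.6 CPM in 3D WT and from 197.8 to 224.4 CPM in the labelled 3D Cxcl5-/- libraries. The single genes split, as 1 was called higher there and 1 lower, with a median log2 fold change of -0.60. In the rescue table the epithelial sum was 854.7 to 901.9 CPM in WT, 285.5 to 300.1 CPM in Cxcl5-/-, 677.4 to 798.6 CPM in Hif1a-OE Cxcl5-/- and 263.1 to 308.2 CPM in Myc-OE Cxcl5-/- cells. The fibroblast sum there was 61.2 to 63.8, 259.0 to 268.3, 125.6 to 160.3 and 168.4 to 178.5 CPM in the same order, and that of the 2 endothelial markers 1.01 to 2.5, 0 to 0.0406, 0.145 to 0.979 and 0.261 to 0.508 CPM. The rescue Cxcl5-/- libraries were thus highest in the fibroblast and lowest in the endothelial sum. Krt8 and Krt18 made up most of the epithelial sum, while the defining markers Cdh1 and Epcam stayed at or under 0.609 and 0.552 CPM in every library. The part of these markers in the results below was not tested. In bulk RNA a smaller amount per cell and fewer cells of a kind cannot be told apart.

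The 68 genes together took 1.09% of the scaled counts in 2D WT (10845 to 11110 CPM), 1.08% in 2D Cxcl5-/- cells, 0.749% in 3D WT (7117 to 7752 CPM) and 0.572% in the labelled 3D Cxcl5-/- libraries (5533 to 5828 CPM). As a share of all counts, with no TMM scaling, the last 2 groups were alike, at 6486 CPM in 3D WT and 6464 CPM in the labelled 3D Cxcl5-/- libraries. In the rescue table the sum was 7788 CPM in WT, 5819 CPM in Cxcl5-/-, 7784 CPM in Hif1a-OE Cxcl5-/- and 8242 CPM in Myc-OE Cxcl5-/- cells. With no TMM scaling it was 8527, 6582, 7521 and 7376 CPM. The spheroids of the media table ran from 5989 to 7185 CPM. The lowest of them was in the M1-CM group.

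**Figure D1:**
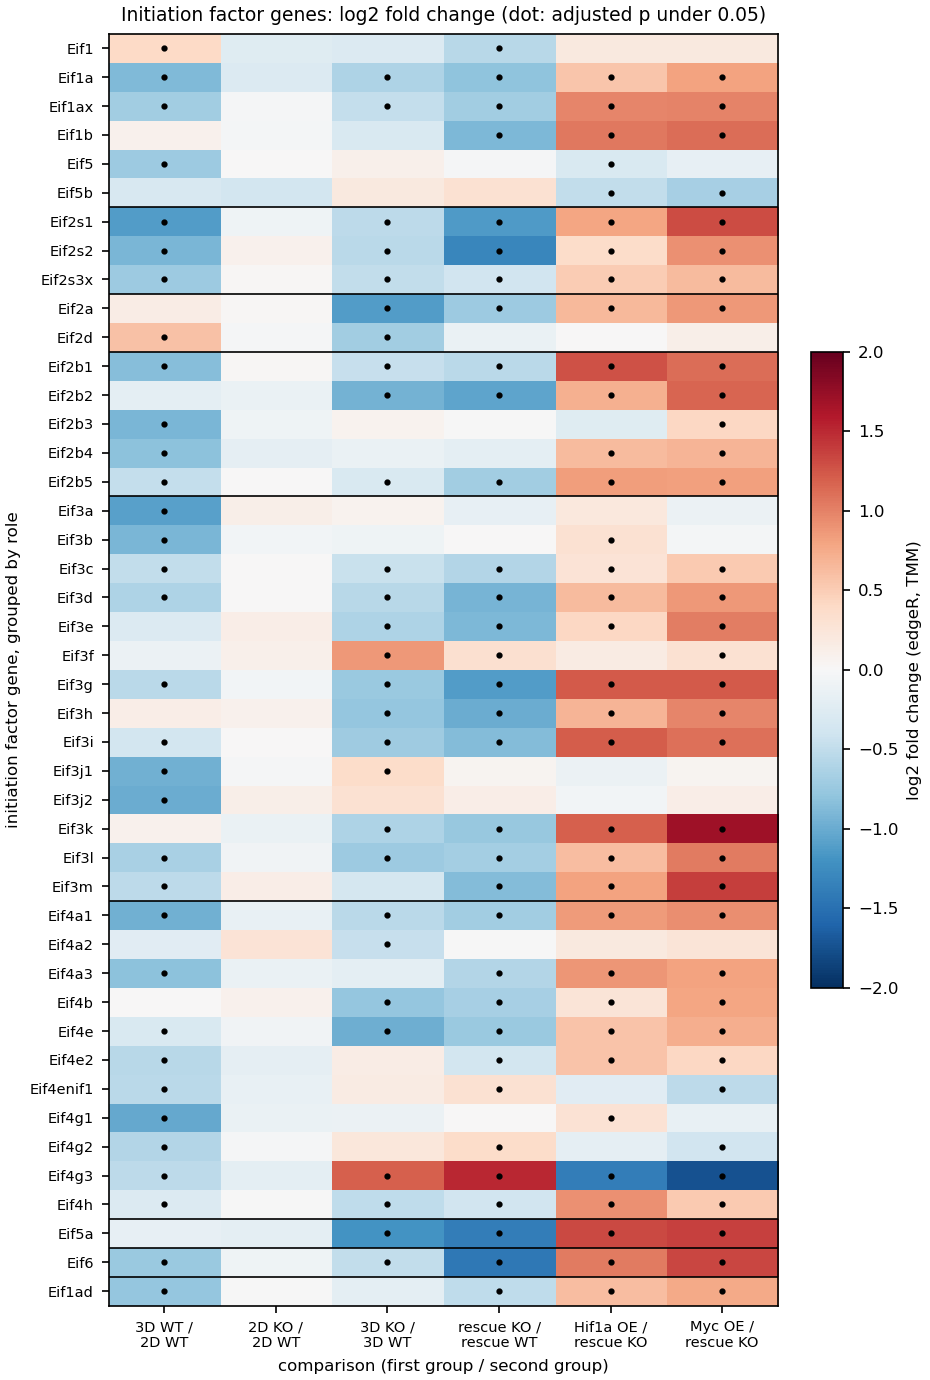
Log2 fold changes of the 44 initiation factor genes averaging 50 counts or more, in rows grouped by role, for 6 comparisons in columns. Red is higher and blue lower in the first group, and a dot marks an adjusted p under 0.05 (edgeR). The column of 2D Cxcl5-/- against 2D WT holds no dot, and Eif4g3 has the opposite colour to most other rows in the last 4 columns.

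The effect of growth in 3D was read first in WT cells. Most initiation factor transcripts were lower in 3D than in 2D. Of 50 genes tested, 31 fell and 4 rose at an adjusted p under 0.05. Over all 21367 genes tested, 22% were called lower and 22.2% higher. The median log2 fold change was -0.53 for the initiation factors and 0.00 for all genes, and -0.75 against -0.21 with library totals in place of TMM.

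The tested subunits of eIF2, the main carrier of the initiator tRNA, fell together. Eif2s1, the alpha subunit of eIF2 whose phosphorylation slows initiation, was at 232.1, 240.6 and 258.4 CPM in 2D WT and at 103.6, 126.9 and 105.4 CPM in 3D WT. The groups did not overlap, and Eif2s1 changed by -1.12 on the log2 scale (SE 0.11, adjusted p = 1.8e-06). The beta subunit Eif2s2 (-0.92) and the gamma subunit Eif2s3x (-0.73) were also called lower. Of the 5 eIF2B genes 4 fell, and Eif2b2 stood apart from them at -0.19 (adjusted p = 0.219). Eif2d, which can deliver initiator tRNA without eIF2, went the other way. It was at 24.6, 25.6 and 28.3 CPM in 2D WT and at 42.5, 37.5 and 37.5 CPM in 3D WT, a log2 difference of 0.58 (SE 0.09, adjusted p = 0.000157). Eif2a, a further carrier of this kind, was at 0.15 (adjusted p = 0.223).

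Within eIF3, 10 of 14 subunit genes fell and 0 rose (4 were not called). Eif3a, the largest subunit and a scaffold of the complex, was at 616.6, 631.9 and 660.4 CPM in 2D WT and at 294.6, 338.6 and 266.0 CPM in 3D WT. Its log2 fold change was -1.09 (SE 0.09, adjusted p = 5.91e-07). The paired genes Eif3j1 and Eif3j2, which code for nearly identical proteins and may share reads, were both called lower, Eif3j1 with -0.96 (adjusted p = 2.69e-06) and Eif3j2 with an adjusted p of 1.23e-05. Eif3h stood farthest from the median of the complex, with a log2 fold change of 0.13 (adjusted p = 0.231), and Eif3f, Eif3k and Eif3e were not called either.

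At the cap, Eif4g1, the main scaffold that joins eIF4E to eIF4A, was at 831.5, 747.9 and 795.6 CPM in 2D WT and at 420.7, 370.8 and 376.6 CPM in 3D WT. The groups were well apart, with a difference of -1.02 on the log2 scale (SE 0.09, adjusted p = 1.04e-06). Eif4e, the cap-binding protein, changed less, from 137.7 to 146.0 CPM in 2D to 111.6 to 121.3 CPM in 3D (-0.30, adjusted p = 0.0287). This call was lost with DESeq2 size factors (-0.23), with the DESeq2 Wald test (-0.23), with no filter and without any one of the 6 libraries. Eif4b was at 0.01 and Eif5a at -0.17, neither of them called. Eif1, which keeps the scanning ribosome from starting at a wrong codon, was called higher with 0.40 (adjusted p = 0.0145), a call that was lost with library totals (0.18), without 2D WT replicate 1 and without 2D WT replicate 3.

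The other 2 rises were in low-count paralogues. Eif5a2, the less common form of eIF5A, had 0 counts in the 3 libraries of 2D WT and 17, 16 and 14 counts in 3D WT, at least 6.74-fold higher against a floor of 3 counts per library. Eif4e3, an atypical cap-binding protein, was at 0.539, 0.129 and 0.459 CPM in 2D WT and at 1.69, 1.47 and 0.793 CPM in 3D WT, higher by 1.81 on the log2 scale (SE 0.58, adjusted p = 0.0241). The call was lost without 2D WT replicate 2, 3D WT replicate 1 or 3D WT replicate 2. Its gene, at chr6:99625135-99666771, shares 373 exon bases on the same strand with Gm20696, so reads there cannot be assigned to 1 gene.

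The effect of Cxcl5 loss in 2D was small for these genes. Of 50 genes tested, 0 were called higher and 1 lower, while 3.86% of all genes were called higher and 3.17% lower. At an unadjusted p under 0.05, 2 initiation factor genes were higher and 4 lower with edgeR, and DESeq2 called 0 higher and 1 lower. The median log2 fold change was -0.02, as it was over all genes. The eIF3 subunits lay between -0.14 and 0.14 and the eIF2B subunits between -0.18 and 0.03.

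The 1 call was Eif4e3. It had 28, 9 and 33 counts in the 2D WT libraries and 0 counts in each 2D Cxcl5-/- library, at least 8.12-fold lower against a floor of 3 counts per library. In 3D it had 87, 63 and 43 counts in WT and 2, 0 and 2 in the labelled 3D Cxcl5-/- libraries, a ratio of 60.6 (exact 95% interval 23.3 to 224.6, for counting error only). In the rescue table it had 38 and 34 counts in WT, 0 and 0 in Cxcl5-/- (at least 12.8-fold lower), 3, 0 and 0 in Hif1a-OE Cxcl5-/- and 7, 0 and 0 in Myc-OE Cxcl5-/- cells. The WT groups lay above the Cxcl5-/- groups in all 3 settings, and the lines with a transgene stayed near 0. Eif4e3 passed the filter of both tables only through its WT libraries. A call between the genotypes could thus only come out as lower in Cxcl5-/-, and it adds no support to the counts themselves. In the rescue table, low counts of markers of other cells also differed between the groups. Cdh5, of endothelial cells, had 19 and 75 counts in WT, 0 and 0 in Cxcl5-/-, 12, 30 and 5 in Hif1a-OE Cxcl5-/- and 0, 2 and 0 in Myc-OE Cxcl5-/- cells. Ptprc, of leukocytes, had 87 and 71 counts in WT, 5 and 6 in Cxcl5-/-, 43, 29 and 2 in Hif1a-OE Cxcl5-/- and 25, 18 and 27 in Myc-OE Cxcl5-/- cells. Their part in the counts of Eif4e3 was not tested. The filter there passed 28730 genes, against 21367 in the culture table. With only genes of at least 10 counts in every library the 2D call was lost, since Eif4e3 was then not tested. With only these groups in the fit Eif4e3 did not pass the filter, and 2 other genes were called, Eif4a2 (0.27, adjusted p = 0.0206) and Eif1a (-0.26, adjusted p = 0.0274).

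In 3D the picture differed. The labelled 3D Cxcl5-/- libraries were compared with 3D WT, and 26 of 50 genes were called lower and 4 higher. Among all genes 25.3% were called lower and 19.7% higher. The median log2 fold change was -0.40 for the initiation factors and -0.04 for all genes. This count depended on the scaling. With library totals 11 genes were called lower and 12 higher, against 11.4% lower and 35.9% higher among all genes. The median of the initiation factors was then -0.02 and that of all genes moved to 0.35. The distance between both medians was -0.36 with TMM and -0.37 with library totals. The falls are thus falls relative to the median of all genes.

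Eif5a, which helps ribosomes through difficult peptide bonds and is known to carry hypusine, was at 468.9, 429.9 and 415.2 CPM in 3D WT, but it was at 193.6, 177.6 and 203.7 CPM in the labelled 3D Cxcl5-/- libraries. The groups were far apart. The log2 fold change was -1.19 (SE 0.08, adjusted p = 1.26e-07), and it was still called with library totals at -0.81. Eif4e went from 114.3, 121.3 and 111.6 CPM to 68.8, 53.4 and 55 CPM, a log2 difference of -0.97 (SE 0.10, adjusted p = 4.87e-06). With library totals it was at -0.60, also called. Eif2a went from 93.9, 95.1 and 96.5 CPM to 50.7, 38.3 and 43 CPM, a log2 difference of -1.11 (SE 0.09, adjusted p = 6.4e-07).

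The 3 tested genes of eIF2 fell by similar amounts, -0.52 for Eif2s1, -0.54 for Eif2s2 and -0.49 for Eif2s3x, and none of these was called with library totals. In eIF2B, Eif2b2 was lowest with -0.95 (adjusted p = 2.88e-05), Eif2b1 and Eif2b5 were called lower, and Eif2b3 and Eif2b4 were not called. Eif2b5 was at -0.31 with TMM and at 0.07 with library totals.

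The eIF3 subunits split. Of the 14 genes 8 fell and 2 rose, with a median of -0.50. Eif3h (-0.77), Eif3g (-0.75), Eif3l (-0.72) and Eif3i (-0.71) were lowest, and these 4 were also called lower with library totals. Eif3f was at 45.4, 46.1 and 48.6 CPM in 3D WT, while it reached 78.7, 99.1 and 78.3 CPM in the labelled 3D Cxcl5-/- libraries, so that the groups were far apart, by 0.87 on the log2 scale (SE 0.11, adjusted p = 3.52e-05). Eif3j1 rose with 0.36 (adjusted p = 0.00749), beside Eif3j2 at 0.30 (adjusted p = 0.0572). Eif3a (0.07) and Eif3b (-0.08) were not called. Reads of Eif3e may be shared with its processed copies, and Eif3j1 overlaps 1107 exon bases of Spg11 on the other strand.

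The eIF4G paralogues differed. Eif4g3 was at 26.5, 28.4 and 24.4 CPM in 3D WT, compared with 50.6, 71.3 and 59.2 CPM in the labelled 3D Cxcl5-/- libraries, a log2 difference of 1.19 (SE 0.14, adjusted p = 1.38e-05). Eif4g1 was at -0.12 (adjusted p = 0.323) and Eif4g2, which supports cap-independent initiation, at 0.23 (adjusted p = 0.138). Per kilobase of exon, Eif4g3 was the lowest of these 3 in both groups, at 2.39 ± 0.179 (SD, n = 3) CPM per kilobase in 3D WT and 5.46 ± 0.942 in the labelled 3D Cxcl5-/- libraries. Eif4g1 was at 53.3 ± 3.74 and 49.1 ± 5.71, and Eif4g2 at 60.9 ± 1.58 and 71.5 ± 11.6 CPM per kilobase. Eif1ad7, of a multicopy family whose members may share reads, had 0, 0 and 4 counts in 3D WT and 71, 54 and 31 counts in the labelled 3D Cxcl5-/- libraries.

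**Figure D2:**
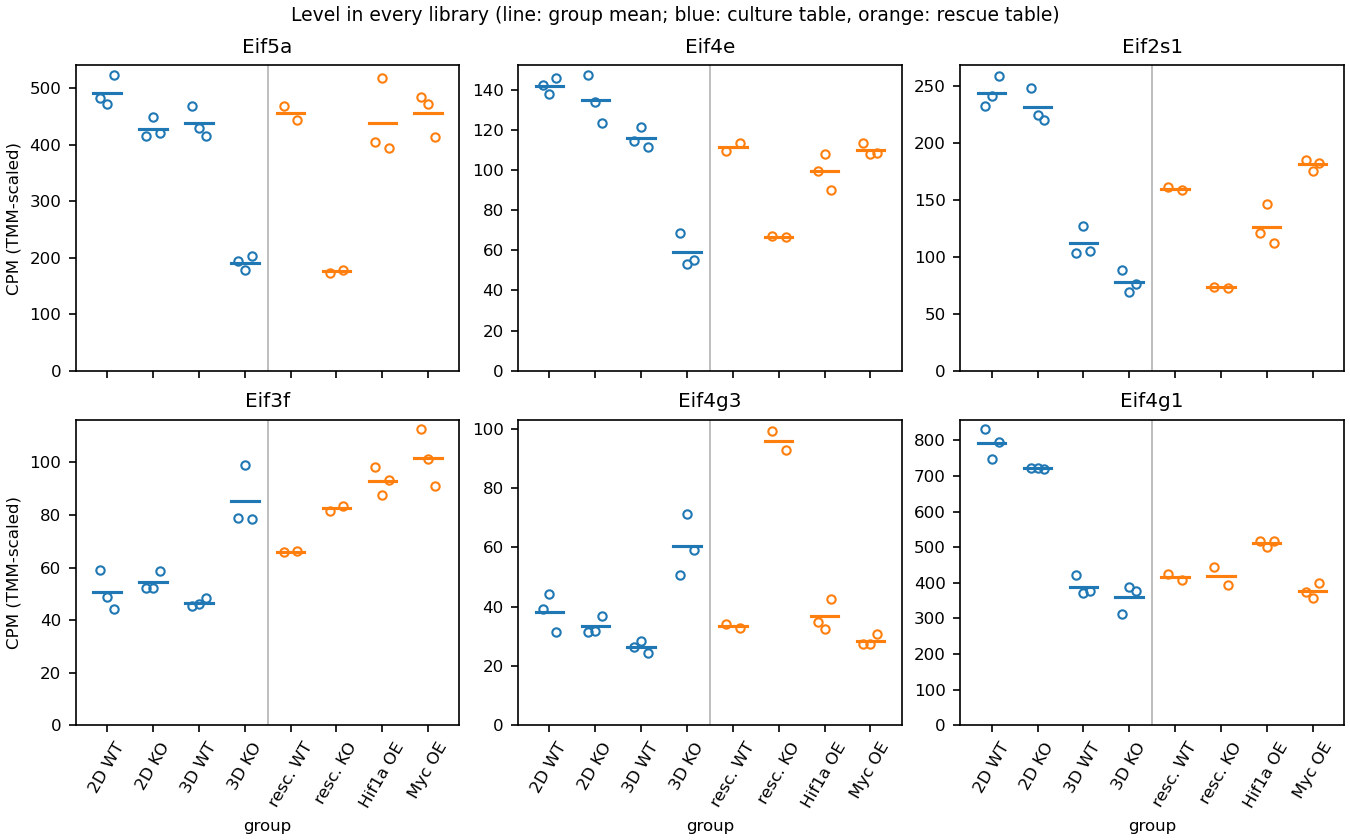
Level of 6 initiation factor genes in every library of the culture (blue) and rescue (orange) tables, in CPM on axes that start at 0, with a line at each group mean. Eif5a and Eif4e are low in the labelled 3D Cxcl5-/- and the rescue Cxcl5-/- libraries, and Eif4g3 is high in the same libraries.

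Whether the genotype effect differed between 2D and 3D was tested as an interaction, the log2 fold change in 3D less that in 2D. It was called for 23 of 50 genes, 21 lower and 2 higher, against 16.1% lower and 11.1% higher among all genes. With library totals 5 were lower and 9 higher, against 6.36% lower and 21.5% higher among all genes, and the median of all genes moved from -0.05 to 0.32. Eif4g3 (1.39, adjusted p = 0.000208) and Eif3f (0.77, adjusted p = 0.00316) were the 2 higher genes. The lowest were Eif2a (-1.13), Eif5a (-0.99), Eif4e (-0.90), Eif4b (-0.86) and Eif3h (-0.85). Of these 5, Eif4b was not called with library totals (-0.49, adjusted p = 0.0586), and the other 4 were. In eIF2 and eIF2B, Eif2s2 (-0.63) and Eif2b2 (-0.81) stood farthest from their complex.

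Cxcl5-/- cells in 3D were also set against the same cells in 2D, a comparison that shares libraries with those above. Of 50 genes 37 were lower and 6 higher in the labelled 3D Cxcl5-/- libraries, and 28.2% of all genes were lower and 28.7% higher. The median was -0.87, against 0.11 for all genes. Eif2s1 (-1.57), Eif2s2 (-1.55), Eif4a1 (-1.36), Eif2b1 (-1.34) and Eif3l (-1.29) fell most. In WT the same genes were at -1.12, -0.92, -0.96, -0.85 and -0.65. Eif4g3 (0.85), Eif3f (0.65) and Eif1 (0.36) rose, and the other 3 called higher had a mean count under 50 (Eif1ad7, Eif4e1b and Eif5a2). The call of Eif1 was lost without 2D Cxcl5-/- replicate 1 or 2 and without labelled 3D Cxcl5-/- replicate 2 or 3. Eif4a1, the main helicase of the cap complex, was at 1236.8, 1131.6 and 1077.5 CPM in 2D Cxcl5-/- cells and at 490.3, 407.4 and 445.5 CPM in the labelled 3D libraries. A processed copy of it, Eif4a-ps4, took 205.4, 188.7 and 185.1 CPM in 2D and 86.1, 66.9 and 73.4 CPM in 3D, so the split of reads between them is uncertain.

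The rescue table gave a further set of 3D Cxcl5-/- and WT libraries. Of 61 genes tested, 32 were lower and 5 higher in Cxcl5-/- cells, against 24.3% lower and 17.6% higher among all 28730 genes. The median was -0.70, and -0.30 for all genes. The filter here also passed genes with few counts outside WT, such as Eif4e3, which could hardly be called higher in Cxcl5-/- cells. With only genes of at least 10 counts in every library, 29 of 44 were lower and 2 higher. Among all 16095 genes 4747 were then lower and 4463 higher. The medians were -0.67 for the initiation factors and -0.01 for all genes. Eif6, which keeps ribosomal subunits from joining too early, was at 127.3 and 129.4 CPM in WT and at 43.5 and 51.8 CPM in Cxcl5-/- cells (log2 fold change -1.43, SE 0.11, adjusted p = 2.54e-06). Eif5a was at 469.4 and 444.9 CPM in WT and at 173.7 and 178.8 CPM in Cxcl5-/- cells (-1.38, SE 0.14, adjusted p = 1.62e-05). Both pairs lay far apart. Eif2s2 (-1.31), Eif2s1 (-1.13) and Eif3g (-1.11) were the next lowest, and Eif2s3x fell less (-0.38, adjusted p = 0.00757). Eif4e was at 109.5 and 113.5 CPM in WT and at 66.9 and 66.7 CPM in Cxcl5-/- cells (-0.74, adjusted p = 9.52e-05).

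Of the eIF3 genes 9 fell and 1 rose. The one that rose was Eif3f, from 65.8 and 66.4 CPM to 81.6 and 83.6 CPM, higher by 0.32 on the log2 scale (SE 0.10, adjusted p = 0.0306). Its call was lost with DESeq2 size factors (0.22), with the DESeq2 Wald test (0.22), with at least 10 counts in every library (0.23) and without any one of the 4 libraries. Eif4g3 rose from 34.2 and 32.9 CPM to 99.2 and 92.6 CPM (1.51, SE 0.13, adjusted p = 4.5e-06). Eif4g2 (0.36, adjusted p = 0.0148) and Eif4enif1, which carries eIF4E into the nucleus (0.31, adjusted p = 0.0299), were called higher as well. The call of Eif4g2 was lost with DESeq2 size factors and without any one of the 4 libraries. That of Eif4enif1 was lost with DESeq2 size factors, the DESeq2 Wald test, library totals and at least 10 counts in every library. It was also lost without WT replicate 1, WT replicate 2 or Cxcl5-/- replicate 1. Here Eif4g1 was at 0.01 (adjusted p = 0.96). Eif1ad7 went from 19 and 22 counts to 141 and 142 counts. In eIF2B, Eif2b3 stood apart from its complex at -0.01 (adjusted p = 0.954), beside Eif2b2 at -1.05.

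Hif1a-OE Cxcl5-/- cells were compared with Cxcl5-/- cells of the same table. Here 31 of 61 genes were higher and 7 lower, against 20.5% higher and 15% lower among all genes. With library totals the split was 25 higher and 10 lower, against 15.1% higher and 19.5% lower. The median was 0.57, and 0.16 for all genes. Eif5a was at 405.4, 519.0 and 394.0 CPM (1.32, SE 0.13, adjusted p = 1.42e-05). Eif2b1, the alpha subunit of eIF2B, was at 44.3, 51.7 and 41.3 CPM against 19.4 and 18.3 CPM (1.28, adjusted p = 5.12e-06). Eif3g (1.22), Eif3i (1.21) and Eif3k (1.19) rose most within eIF3, in which 10 of 14 genes rose and 0 fell (4 were not called).

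Against them, Eif4g3 was at 34.9, 32.6 and 42.7 CPM in Hif1a-OE Cxcl5-/- cells, close to the WT pair and under both Cxcl5-/- libraries (-1.38, SE 0.11, adjusted p = 3.85e-06). Eif5b, the GTPase that joins the subunits, was at -0.49 (adjusted p = 0.00621) and Eif5 at -0.31 (adjusted p = 0.00659). Eif1ad7 was at 8, 16 and 15 counts (-3.60, adjusted p = 2.12e-05). Eif2b3 was the eIF2B gene farthest from its complex, at -0.25 (adjusted p = 0.0553), and the other 4 were called higher. The reads of Eif5b overlap 1643 exon bases of Rev1 on the other strand.

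Myc-OE Cxcl5-/- cells shared the same Cxcl5-/- libraries. Of 61 genes 32 were higher and 5 lower, against 21.6% higher and 18% lower among all genes, and with library totals 26 were higher and 9 lower, against 14.9% and 26%. The median was 0.75, and 0.11 for all genes. Eif3k, a small subunit at the edge of eIF3, was at 215.9, 204.9 and 171.4 CPM against 58.3 and 63.5 CPM in Cxcl5-/- and 103.0 and 103.1 CPM in WT cells (log2 fold change over Cxcl5-/- 1.70, SE 0.13, adjusted p = 2.08e-06). All 3 libraries lay above both WT libraries. Eif3m was at 220.6, 213.6 and 207.7 CPM against 81.3 and 82.2 CPM (1.39, adjusted p = 4.34e-06). Eif5a was at 485.1, 472.4 and 413.2 CPM (1.37), Eif6 at 129.4, 114.0 and 115.8 CPM (1.33) and Eif2s1 at 185.1, 175.4 and 182.6 CPM (1.31), each called. Eif5a and Eif6 thus covered the levels of the WT pair, and Eif2s1 lay above its 160.8 and 158.7 CPM. All 3 tested eIF2 genes and all 5 eIF2B genes rose.

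Eif4g3 fell to 27.4, 27.4 and 30.7 CPM (-1.75, SE 0.11, adjusted p = 6.17e-07). Eif5b (-0.66), Eif4enif1 (-0.52) and Eif4g2 (-0.39) were lower too, and Eif1ad7 was at 14, 15 and 20 counts. Eif3a (-0.11, adjusted p = 0.353), Eif3b (-0.04, adjusted p = 0.781) and Eif4g1 (-0.15, adjusted p = 0.184) were not called. Of the 10 genes whose windows hold CACGTG, 7 were called higher with Myc and 0 lower, and of the 27 tested genes whose windows hold none, 18 were higher and 3 lower. With Hif1a the same genes gave 7 higher and 0 lower, and 19 higher and 3 lower. In the labelled 3D Cxcl5-/- libraries against 3D WT they gave 5 lower and 1 higher, and 15 lower and 2 higher. Both sets of genes thus held calls in these directions, and the difference between the sets was not tested. Eif3f was at 112.8, 101.5 and 91.1 CPM, called higher with TMM (0.30, adjusted p = 0.0264) and at -0.04 with library totals. The call was also lost with at least 10 counts in every library. Leaving out Cxcl5-/- replicate 1 or 2 or Myc-OE Cxcl5-/- replicate 1 or 2 ended it too. On the TMM scale Eif3f lay above WT in both lines with a transgene and in both sets of Cxcl5-/- libraries in 3D.

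**Figure D3:**
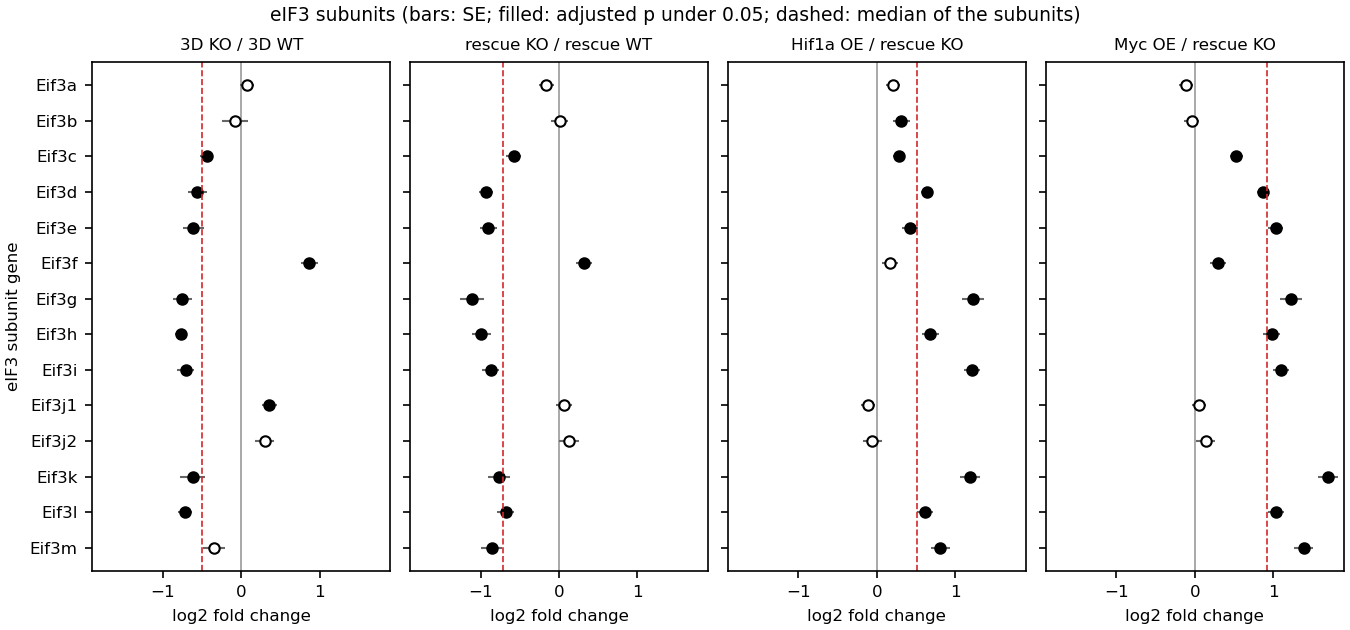
Log2 fold change of the 14 eIF3 subunit genes with its SE in 4 comparisons, filled where the adjusted p was under 0.05, with the median of the subunits dashed. Eif3f is the farthest right in both comparisons of Cxcl5-/- with WT, and Eif3a, Eif3b, Eif3j1 and Eif3j2 stay between -0.16 and 0.36 in all 4 panels.

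Myc-OE and Hif1a-OE Cxcl5-/- cells were compared with each other, since each had been set against the same 2 libraries. Of 61 genes 13 were higher and 6 lower with Myc, against 9.54% higher and 9.73% lower among all genes, and with library totals 9 were higher and 7 lower, against 6.9% and 12.2%. The count of 19 fell to 12 without Hif1a-OE Cxcl5-/- replicate 1 and to 11 without Myc-OE Cxcl5-/- replicate 2. The median was 0.14, and -0.01 for all genes. Eif2b3 was higher with Myc, at 25.8, 27.1 and 28.4 CPM against 17, 18.1 and 16.1 CPM, a log2 difference of 0.67 (SE 0.08, adjusted p = 0.000157). Eif3e (0.61), Eif3m (0.57), Eif2s2 (0.55) and Eif4b (0.54), an activator of the helicase eIF4A, were next. Eif4b was at 618.4, 609.2 and 615.4 CPM with Myc and at 418.4, 446.1 and 402.0 CPM with Hif1a.

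Lower with Myc were the scaffold Eif4g1 (-0.44, SE 0.08, adjusted p = 0.00188), Eif4h (-0.38), Eif4g3 (-0.37), Eif3b (-0.35), Eif3a (-0.33) and Eif4enif1 (-0.30). The calls of Eif4g3, Eif3b, Eif3a and Eif4enif1 were all lost without Myc-OE Cxcl5-/- replicate 2, and each was also lost without other single libraries. That of Eif4g3 was lost with no filter and with only the groups compared as well. Eif4g1 and Eif4h kept their calls in these settings. Eif4g1 was at 375.1, 358.0 and 399.5 CPM with Myc and at 517.9, 500.2 and 516.6 CPM with Hif1a, so the groups did not overlap. Eif5a did not differ detectably, at 0.06 (SE 0.11, adjusted p = 0.806), and neither did Eif4e at 0.15 (SE 0.08, adjusted p = 0.226). Eif4e1b, a form of eIF4E known from oocytes, had 19, 51 and 46 counts with Myc and 0 in each Hif1a-OE Cxcl5-/- library, at least 14-fold higher against 3 counts per library.

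**Figure D4:**
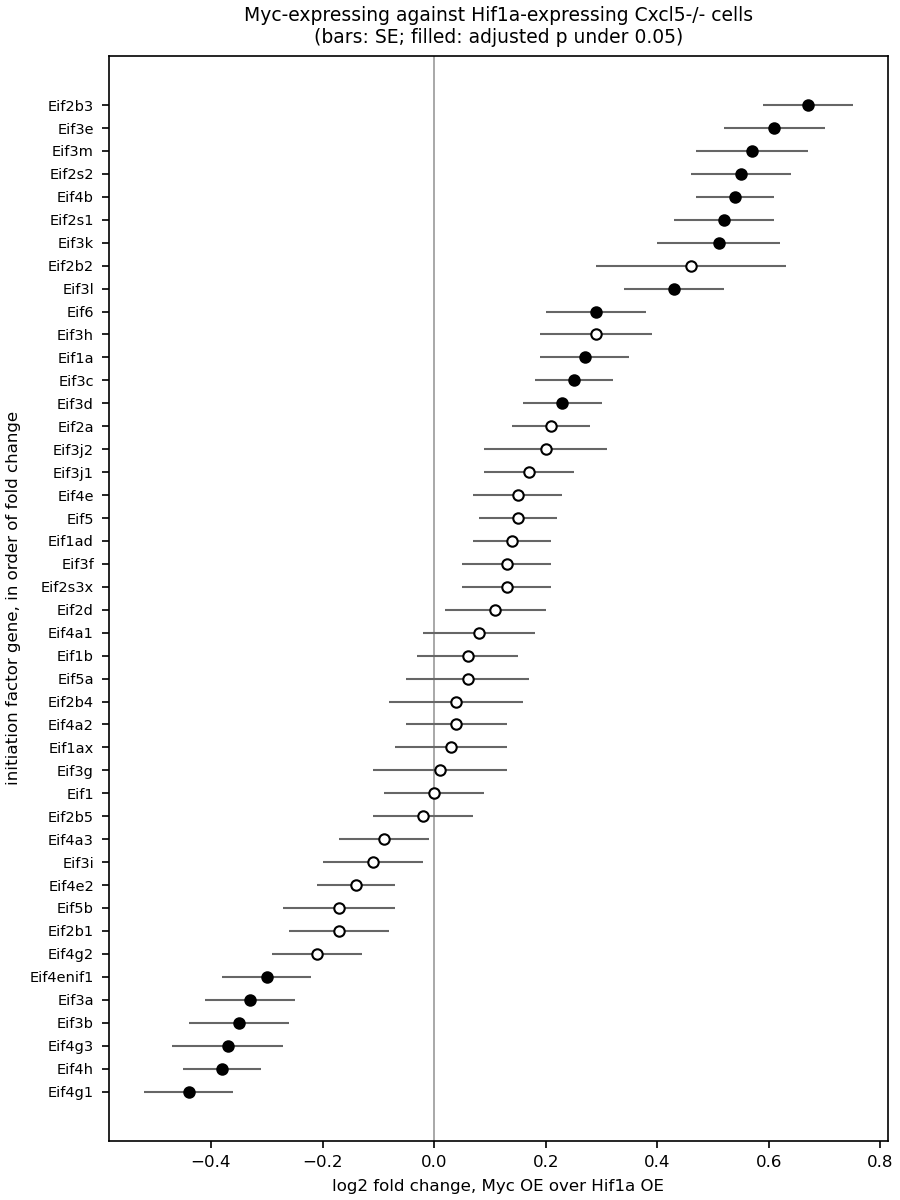
Log2 fold change of 44 initiation factor genes in Myc-OE over Hif1a-OE Cxcl5-/- cells, in order, with its SE, filled where the adjusted p was under 0.05. Eif2b3 is at the top with 0.67 and Eif4g1 at the bottom with -0.44.

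Exon length moved with these differences. Among protein-coding genes that averaged 50 counts or more, the median log2 fold change of rescue Cxcl5-/- against WT cells was -0.44 for the 1459 genes with up to 2000 exon bases, -0.09 for up to 4000 bases and 0.21 for the 6662 longer ones. The initiation factors were at -1.02 (4 genes), -0.58 (17 genes) and -0.37 (23 genes). In Myc-OE against Cxcl5-/- cells all genes were at 0.84, 0.31 and -0.15, and the initiation factors at 1.14, 0.81 and 0.42. In Hif1a-OE against Cxcl5-/- cells these were 0.79, 0.31 and -0.10 beside 0.89, 0.63 and 0.29. In the labelled 3D Cxcl5-/- libraries against 3D WT all genes were at -0.37, -0.20 and -0.01 and the initiation factors at -0.76, -0.35 and -0.48. In WT cells in 3D against 2D all genes lay between -0.13 and -0.08 in the 3 classes. The initiation factors thus lay below all genes of their length class in both comparisons of Cxcl5-/- with WT in 3D, and above them in both lines with a transgene. Eif4g3, with 11063 exon bases, is the longest of the 68, and Eif3f has 2891. The part of length in single genes was not tested.

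**Figure D5:**
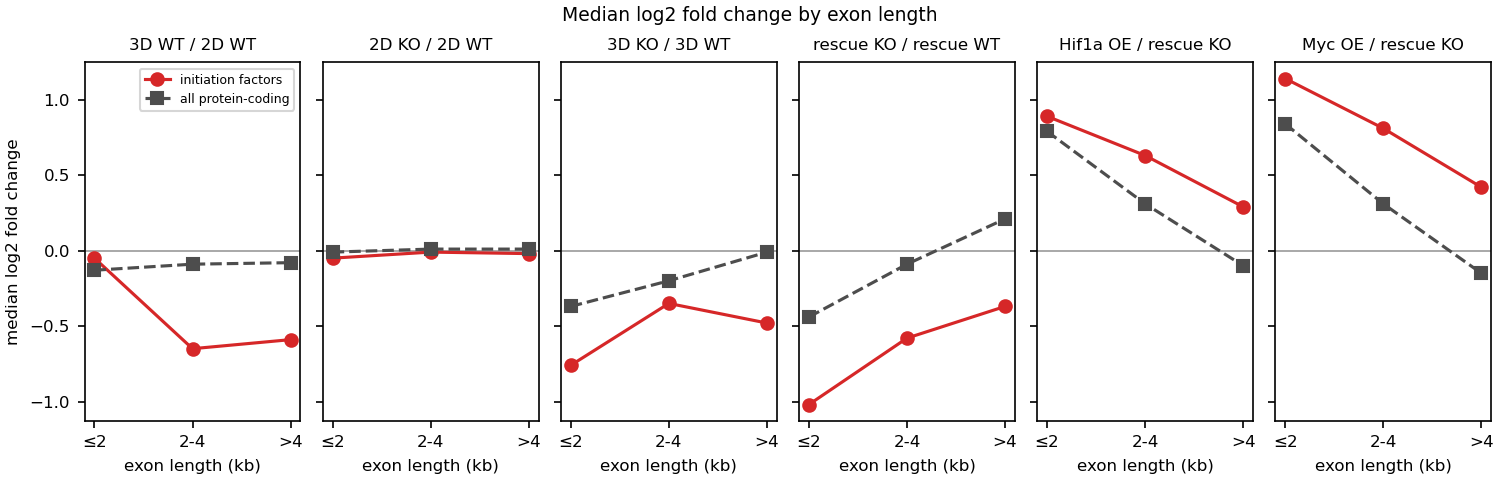
Median log2 fold change (vertical axis) of the initiation factor genes (red) and of all protein-coding genes (grey) by exon length in kilobases, for 6 comparisons. The grey line climbs with length in rescue Cxcl5-/- against WT, from -0.44 to 0.21, and descends in both lines with a transgene.

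The paralogues kept their order of level per kilobase of exon in most groups. Eif5a was at 207.3 ± 11.4 (SD, n = 3) CPM per kilobase in 2D WT and at 80.6 ± 5.53 in the labelled 3D Cxcl5-/- libraries, while Eif5a2 stayed at or under 0.0916 CPM per kilobase in the group means of all 3 tables. Eif4a1 exceeded Eif4a2 by far in 2D WT, at 293.1 ± 8.77 against 131.8 ± 2.42 CPM per kilobase, but in rescue Cxcl5-/- cells the pair was level at 97.6 ± 1.59 and 97.1 ± 3.22 (n = 2). There Eif4a1 fell (-0.69, adjusted p = 0.00111) and Eif4a2 was at -0.01 (adjusted p = 0.969) against WT. Eif1a and Eif1ax, which code for nearly the same protein, were at 72.1 ± 1.61 and 48.7 ± 1.65 CPM per kilobase in 2D WT and at 25.6 ± 4.3 and 21.6 ± 3.21 in the labelled 3D Cxcl5-/- libraries. Eif1 was above Eif1b in 2D WT, at 40.2 ± 6.46 against 17.2 ± 3.61. Of the pair Eif2s3x and Eif2s3y, the latter, on the Y chromosome, had 0 counts in all 31 libraries, which allows up to 3 counts or 0.0701 CPM in a library.

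Regulators of initiation, a list of 27 genes outside the name rule, moved in both directions. The single genes of it given below were chosen after their values were seen. In the labelled 3D Cxcl5-/- libraries against 3D WT, 4 were higher and 9 lower, beside 19.7% and 25.3% of all genes. In rescue Cxcl5-/- against WT 8 were higher and 8 lower, beside 17.6% and 24.3%, and in Myc-OE against Cxcl5-/- cells 13 were higher and 6 lower, beside 21.6% and 18%. Pdcd4, which blocks the helicase eIF4A, was at 1.66 (adjusted p = 1.43e-08) in the labelled 3D Cxcl5-/- libraries and at 2.43 (adjusted p = 5.92e-08) in the rescue Cxcl5-/- cells. Eif4ebp1, which holds eIF4E away from eIF4G, was at -1.65 (adjusted p = 5.14e-08) and -1.73 (adjusted p = 4.24e-06), and its relative Eif4ebp2 at 1.23 and 1.05, both called. With Myc, Eif4ebp1 was at 1.44 and Pdcd4 at -0.68 over Cxcl5-/- cells, both called. Dhps and Dohh, the enzymes that make the hypusine of eIF5A, were at -0.53 and -0.55 in the labelled 3D Cxcl5-/- libraries and at 0.88 and 0.87 with Myc, all 4 called. In rescue Cxcl5-/- cells Dhps was at -0.20 (adjusted p = 0.407) and Dohh at -0.58 (adjusted p = 0.0034). The genes of this paragraph were tested with TMM only, so whether their calls hold with library totals was not tested. In labelled 3D Cxcl5-/- against 3D WT the median of all genes was -0.04 with TMM and 0.35 with library totals. Of 9 tested genes of elongation and termination, 6 were lower and 1 higher in the labelled 3D Cxcl5-/- libraries, and 7 were higher and 1 lower with Myc, beside the same shares of all genes.

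Macrophage-conditioned media gave no calls. Of 46 genes tested, 0 were called in M1-CM against Ctrl, in M0-CM against Ctrl and in M1-CM against M0-CM. At an unadjusted p under 0.05 there were 1, 0 and 1 with edgeR, and DESeq2 called 0 in each. Among all 19207 genes, edgeR called 0.0156% higher with M1-CM against Ctrl, 0.0156% against M0-CM and 0% lower, and M0-CM changed 0% in either direction against Ctrl. The DESeq2 Wald test, over 19167 genes, called more. It gave 69 higher and 28 lower in M1-CM against Ctrl, 14 and 3 in M0-CM against Ctrl, and 21 and 11 in M1-CM against M0-CM. The 1 initiation factor gene at an unadjusted p under 0.05 was Eif3b, at 112.9, 92.3 and 75.1 CPM in Ctrl, at 98.5, 89.4 and 77.8 CPM with M0-CM and at 103.9, 210.4 and 117.0 CPM with M1-CM (log2 fold change over Ctrl 0.62, SE 0.26, adjusted p = 0.965). Replicate 2 of M1-CM stood apart in several genes. Its Eif2s1 was at 66.1 CPM, against 131.0 and 115.0 CPM in the other M1-CM libraries, and its Eif4g2 at 894.9 CPM against 533.6 and 481.0 CPM. Among genes averaging 50 counts or more, the next rise with M1-CM after Eif3b was in Eif4e3 (0.56) and the largest falls in Eif1a (-0.34) and Eif4a3 (-0.33), each with an adjusted p of 0.965. With M0-CM they were Eif4e3 (0.48), Eif3h (0.25), Eif2b3 (-0.26) and Eif4e (-0.26), each with an adjusted p of 1. M1-CM against M0-CM gave Eif3b (0.70), Eif4g3 (0.55), Eif1a (-0.32) and Eif3m (-0.32), each with an adjusted p of 0.989. Eif4e in M0-CM rested on replicate 1, at 32.1 CPM against 75.3 and 77.7 CPM, and was at 0.05 without it. Eif4e3, at 0.468 to 1.73 CPM, was detected in all 9 spheroid libraries.

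Of the 68 genes, 18 were not tested in the culture table, 7 in the rescue table and, of 51 listed, 5 in the media table, all for low counts. These were Eif2s3y, Eif2c5 and Eif4a3l1 in each table. In the culture table they also held 15 members of the Eif1ad family, 4 members of it in the rescue table, and in the media table Eif4a3l2 and Eif4e1b.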

How the data were processed

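RNA of 31 libraries was sequenced as paired 101-base reads from TruSeq Stranded total RNA kits. Per the labels and the study's methods, the authors aligned reads to GRCm38 (mm10) with HISAT2 and obtained read counts with StringTie, and deposited 3 tables of raw counts per gene. The strand setting and annotation release are not given in the sources used here. Tables were analysed separately. Genes that passed filterByExpr were fitted with edgeR 4.0.16 (TMM, quasi-likelihood test, all groups of a table, R 4.3.3) and p-values were adjusted by Benjamini-Hochberg over all genes tested. An adjusted p under 0.05 was a call. The fit was tested on simulated data. Alternatives were library totals, DESeq2 size factors, the DESeq2 1.42.0 Wald test, other filters, summed rows, fewer groups, a fold limit, a replicate block and leaving out libraries. The class limits of exon length were added after the data were seen. Genes were matched by symbol, taking the row with most counts. Named genes were up to 5 called in each direction by log2 fold change with a mean count of at least 50. For media they were up to 2 in each direction, called or not, with the same mean count. The paralogue pairs and the subunit farthest from the median of its complex were named too. The regulators were planned as counts of a list. Other genes named, among them the single regulators, were chosen after their values were seen. Members and lists were chosen with earlier results of these data known. Intervals and floors cover counting error only.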

Additional observations from a re-analysis of the deposited data

Results flagged for a closer look

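The effect of the Cxcl5-/- label differed between 2D and 3D for 23 of 50 initiation factor genes, by the interaction contrast of the edgeR fit, with each value given as the log2 fold change in 3D less that in 2D. Eif4g3 (1.39) and Eif3f (0.77) were higher. Among the carriers of initiator tRNA, Eif2a (-1.13), Eif2d (-0.68), Eif2s2 (-0.63), Eif2s3x (-0.53) and Eif2s1 (-0.45) were lower, as were Eif2b2 (-0.81) and Eif2b1 (-0.49) of eIF2B. In eIF3 these were Eif3h (-0.85), Eif3e (-0.75), Eif3i (-0.72), Eif3g (-0.69), Eif3l (-0.65), Eif3d (-0.56) and Eif3c (-0.44). At the cap they were Eif4e (-0.90), Eif4b (-0.86), Eif4a2 (-0.73), Eif4h (-0.50) and Eif4a1 (-0.40). Eif5a (-0.99) and Eif1ax (-0.46) completed the list. With library totals in place of TMM, 16 of the 23 were no longer called, among them all named genes of eIF2 and eIF2B, and the 7 still called were Eif2a, Eif3f, Eif3h, Eif3i, Eif4e, Eif4g3 and Eif5a. With no filter Eif1ax, Eif2b1, Eif2s1, Eif3c, Eif3d, Eif4a1 and Eif4h were not called. With at least 10 counts in every library Eif2s1 and Eif4a1 were not called. Leaving out single libraries ended calls as well. That of Eif2s1 was lost without any one of 7 libraries (2D WT replicate 1 or 2, 2D Cxcl5-/- replicate 1 or 3, 3D WT replicate 2, labelled 3D Cxcl5-/- replicate 2 or 3). Without 2D Cxcl5-/- replicate 1, Eif1ax, Eif3c, Eif3d, Eif4a1 and Eif4h were lost too, without labelled 3D Cxcl5-/- replicate 2 Eif1ax, Eif3d, Eif4a1 and Eif4h, and without labelled 3D Cxcl5-/- replicate 3 Eif1ax. Cxcl5 was itself higher in the labelled 3D Cxcl5-/- libraries than in 3D WT.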

How the results depend on the processing

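Adding an absolute log2 fold change above 1 to the threshold left 5 genes in 3D WT against 2D WT, 5 in labelled 3D Cxcl5-/- against 3D WT, 22 in 3D against 2D Cxcl5-/-, 2 in the interaction, 11 in rescue Cxcl5-/- against WT, 12 with Hif1a, 15 with Myc and 1 in Myc against Hif1a. In 2D Cxcl5-/- against WT there were 0 calls with at least 10 counts in every library, where Eif4e3 was not tested, and 2 with only the groups compared. With library totals the interaction had 14 calls, and the log2 fold changes of Eif2b5 in labelled 3D Cxcl5-/- against 3D WT (0.07) and Eif3f in Myc-OE against Cxcl5-/- cells (-0.04) changed sign, and the cause was not tested. Leaving out 1 library at a time gave 31 to 34, 29 to 35, 1 to 1, 38 to 40, 17 to 29, 29 to 30, 28 to 39, 34 to 36 and 11 to 21 calls, in the order 3D WT against 2D WT, labelled 3D Cxcl5-/- against 3D WT, 2D Cxcl5-/- against WT, 3D against 2D Cxcl5-/-, interaction, rescue Cxcl5-/- against WT, Hif1a, Myc and Myc against Hif1a, and 0 in each media comparison. Eif4e in M0-CM against Ctrl ran from -0.46 without M0-CM replicate 3 to 0.05 without M0-CM replicate 1.

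Replicate numbers showed no pairing of libraries that held across all groups. Deviations of same-numbered libraries correlated at -0.10 to 0.18 in the culture table, -0.24 to 0.36 in the media table and -0.02 to 0.05 in the rescue table. In the media table same-numbered Ctrl and M0-CM libraries were all positive, at 0.36, 0.25 and 0.07. Those of Ctrl and M1-CM were at -0.11, -0.24 and 0.06, and those of M0-CM and M1-CM at -0.05, -0.17 and 0.16. With the replicate number as a block the calls were 36, 34, 1, 44, 26, 36, 39, 39 and 21 in the same order and 0 in each media comparison, all within 1.5 times the values without it. Under the block Eif2s1 in the interaction, Eif1ad2 and Eif5a2 in rescue Cxcl5-/- against WT and Eif4e1b in Myc-OE against Cxcl5-/- cells were no longer called, and no other initiation factor lost its call.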
